A study of Mus musculus with 72 samples.

Results

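The genes examined here encode Polycomb repressive complex 2 (PRC2) and one demethylase that acts on its mark: the core subunit genes Suz12, Eed, Ezh1 and Ezh2, the accessory subunit genes Aebp2, Jarid2, Mtf2, Phf1 and Phf19, and the demethylase gene Kdm6b. A differential site was assigned to a gene when it overlapped, by at least 1 bp, the gene body or the 1000 bp before the gene start in the mouse annotation GENCODE M21 (mm10). By that rule 21 of the 36113 sites in the 5 deposited tables fell in these 10 genes, which are 10 of 21938 annotated protein-coding genes. A total of 7 genes held a site in at least 1 table, and Phf1, Phf19 and Kdm6b held none.

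PRC2 places methyl groups on lysine 27 of histone H3. EZH2 or its relative EZH1 carries the catalytic SET domain, EED binds methylated H3K27 and stimulates the enzyme, and SUZ12 holds the complex together and binds the accessory subunits. AEBP2 and JARID2 mark one form of the complex, and MTF2, PHF1 and PHF19, the Polycomb-like proteins, mark another; KDM6B removes methyl groups from trimethylated and dimethylated H3K27. Monomethylated H3K27 (H3K27me1) is found in the bodies of transcribed genes, and dimethylated H3K27 (H3K27me2) is spread broadly outside them.

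The study mapped both marks by CUT&RUN, in which an antibody-guided nuclease releases the DNA beneath a mark, using nucleus accumbens (part of the ventral striatum) from adult male wildtype mice. In one cohort, chronic social defeat stress (CSDS) was followed by division into susceptible and resilient mice, which were set against unstressed controls with 4 libraries per mark and group. In the other, mice with early life stress (ELS) and later subthreshold defeat were set against standard-reared mice without defeat, with 3 H3K27me1 libraries per group; both ELS and defeat differ in that contrast and their parts cannot be told apart. The susceptible and resilient tables share the same 4 control libraries of each mark, the ELS table shares none with them, and IgG libraries of each group gave the background. Nothing in the labels ties a library to an animal of its own. The limma and permutation p-values below therefore measure only the spread between these libraries, which may be technical. For the defeat cohort the authors' p-values come from a G-test, which does not measure that spread. For the ELS cohort they come from a negative binomial test. In bulk tissue, fewer cells of a type and less mark per cell cannot be told apart. A mark in selected windows gives no level of a cell type. None of 8 medium spiny neuron marker genes held a site in any table. Of the glial, vascular and other neuronal marker genes only Cx3cr1, P2ry12 and Mbp did. Called H3K27me1 sites lay in 19.8% (susceptible), 14.7% (resilient) and 13.5% (ELS) of all protein-coding genes. The microglial gene Cx3cr1 held 6 sites in susceptible and 1 in resilient mice, all lower, the same direction as most susceptible sites of the PRC2 genes. That direction was also the commoner one in genes at large. In susceptible mice 15.2% of all protein-coding genes held a lower site and 7.91% a higher one. In the ELS cohort the microglial gene P2ry12 held 1 lower and the oligodendrocyte gene Mbp 1 higher site. The other 3 microglial markers held no site in the defeat cohort, and the part of microglia in the results was not tested.

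Depth is known here only as a mean per bin, which depends on the comparison as well as the library. Control library 25 had 26.73 in the susceptible and 26.58 in the resilient comparison. The ELS comparison tested 1287727 windows and the susceptible one 270324, so the means do not rank the cohorts by depth. Mean reads per 1000-bp bin, per the file headers, were 20.57 to 30.39 for H3K27me1 in the defeat cohort, 5.0 to 7.78 for H3K27me1 in the ELS cohort and 10.56 to 40.63 for H3K27me2. The values below are the authors' normalised reads per library in a site, with libraries numbered as in the file headers, and sites differ in width. Every deposited site had already been selected for a difference between these libraries, so the limma values given here describe the spread between libraries and are no independent support. After adjustment over all windows the authors tested, 0 of the susceptible and 0 of the resilient sites of these genes passed limma (0% of all sites in both tables), although all of them had an unadjusted limma p under 0.05, as did 98.9% and 99.6% of all sites.

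Exon sequence inside the sites is shown first for Suz12, Eed and Ezh2, since these are the sites that reach coding sequence of core subunits. The sequences run 5′ to 3′ along the gene's own strand and come from the principal coding transcript of each gene in GENCODE M21 (mm10). Capitals mark bases inside both a susceptible and a resilient site, as for 33 of the 133 bases of Suz12 exon 12. The lower-case bases of that exon lie in the resilient site alone. Intronic sequence was not used here.
Suz12 exon 4, chr11:79999057-79999125, plus strand, in the site higher in susceptible libraries: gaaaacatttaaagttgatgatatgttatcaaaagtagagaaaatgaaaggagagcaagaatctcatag
Suz12 exon 8, chr11:80015143-80015236, plus strand, in a site lower in resilient libraries: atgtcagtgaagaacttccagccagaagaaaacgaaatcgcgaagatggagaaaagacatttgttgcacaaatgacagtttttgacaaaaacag
Suz12 exon 11, chr11:80024910-80025001, plus strand, in the sites lower in both: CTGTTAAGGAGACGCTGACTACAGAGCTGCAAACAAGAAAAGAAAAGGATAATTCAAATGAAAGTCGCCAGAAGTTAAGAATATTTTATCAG
Suz12 exon 12 (first part), chr11:80025168-80025300, plus strand, in the same sites: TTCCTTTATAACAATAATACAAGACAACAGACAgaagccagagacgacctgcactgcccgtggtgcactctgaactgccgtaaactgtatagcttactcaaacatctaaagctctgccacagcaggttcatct
Eed exon 3, chr7:89972231-89972323, minus strand, in a site lower in resilient libraries: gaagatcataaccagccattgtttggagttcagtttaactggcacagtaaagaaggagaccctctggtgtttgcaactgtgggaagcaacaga
Ezh2 exon 14, chr6:47541845-47541970, minus strand, in a site higher in resilient libraries: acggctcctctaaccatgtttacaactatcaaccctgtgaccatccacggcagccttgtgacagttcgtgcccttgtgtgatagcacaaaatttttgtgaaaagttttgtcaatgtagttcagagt
The GC content of these stretches was 28.99% in Suz12 exon 4, 43.7% in Ezh2 exon 14 and 45.2% in Eed exon 3. Sites are 1000 bp or longer, so each exon is a small share of its site.

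No site of these genes lay before a gene start. The site nearest to a start had its middle 4.98 kb into Eed, and 8 of the 21 sites overlapped coding exon sequence in at least 1 annotated transcript. The map of sites along the genes shows how the directions were arranged.

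**Figure D1:**
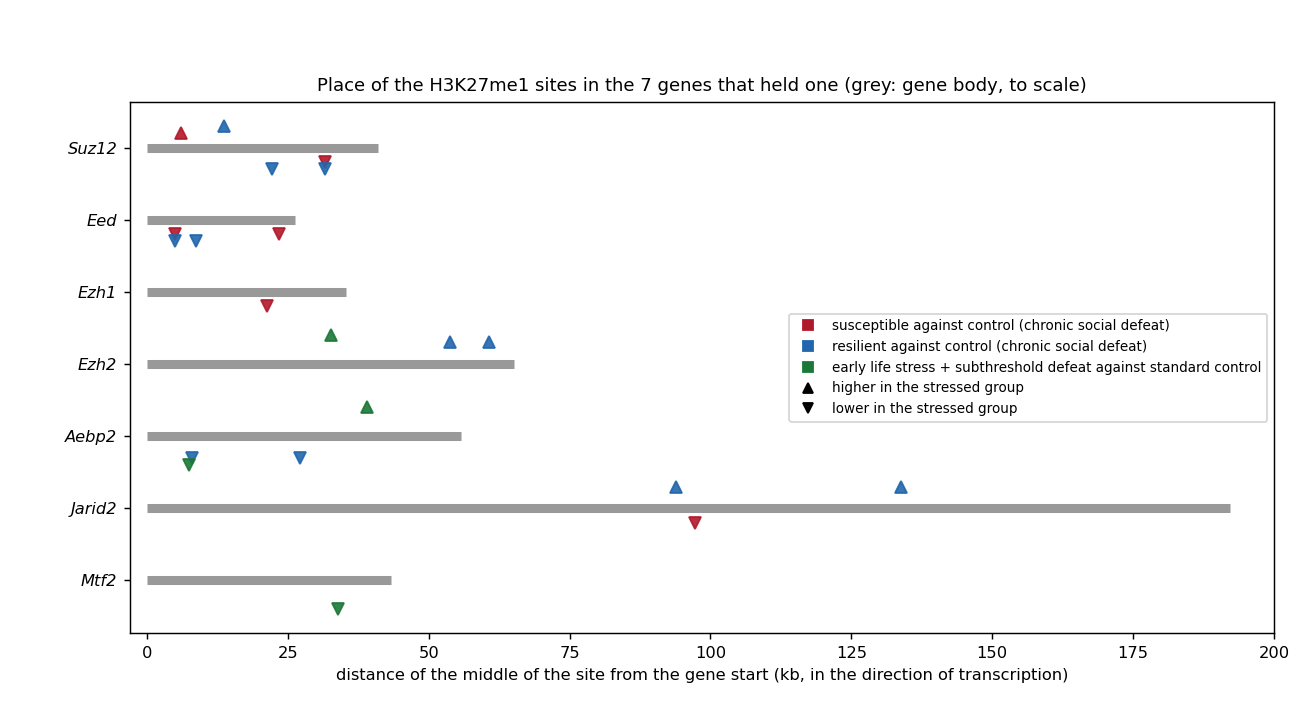
Places of the 21 H3K27me1 sites in the 7 genes that held one; the x axis is the distance from the gene start in kb and each grey bar is a gene body to scale. Triangles pointing up are sites higher in the stressed group, those pointing down lower, and colours give the comparison. In Suz12 the higher sites lie nearer the start (6.04 and 13.7 kb) than the lower ones (22.1 to 31.6 kb), in Eed all sites are lower, and in Ezh2 all are higher.

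In susceptible mice, H3K27me1 at these genes was mostly lower: 4 of the 10 genes held a site, Eed, Ezh1 and Jarid2 only lower ones and Suz12 both kinds. Of 6 sites 1 was higher and 5 were lower in the authors' deposited table (adjusted p under 0.05), beside 50.3% higher among all called sites of that table. Of all protein-coding genes 19.8% held a called site (7.91% a higher and 15.2% a lower one), and of those longer than Phf19, the longest of the 3 genes without a site (20270 bp), 33.6% did. The median absolute log2 change in the authors' deposited table was 0.46 at these sites and 0.43 over all sites. The susceptible and control libraries did not overlap at 4 of the 6 sites (52.8% of all sites in the table).

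Suz12, whose product is the scaffold of the complex, held the one higher site. It spanned exon 4 and flanking introns (chromosome 11, 79998401 to 79999900), with 135.34, 139.07, 118.58 and 118.54 reads in susceptible libraries 26, 29, 32 and 35. Control libraries 25, 28, 31 and 34 held 98.39, 86.41, 73.60 and 81.66. All susceptible libraries were above all controls, and the log2 change was 0.59 ± 0.14 (SE, limma, unadjusted p = 0.00022). The authors' adjusted p of 2.59e-06 (G-test) was the smallest at any site of these genes in the defeat cohort. The limma p adjusted over all windows was 0.284 there.

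The lower Suz12 site lay further along the gene, over exons 11 and 12 (chromosome 11, 80024201 to 80025200), where the annotation also has the antisense lincRNA gene Gm26563. Susceptible libraries held 73.10, 76.76, 43.56 and 62.92 reads and controls 90.11, 82.95, 106.67 and 72.78. Control library 34 fell inside the susceptible range, so the groups overlapped. The log2 change was -0.47 ± 0.17 (SE, limma, unadjusted p = 0.00897), and -0.30 (unadjusted p = 0.0802) without susceptible library 32, the lowest.

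Eed, which encodes the WD40 protein that reads H3K27 methylation, had a pair of lower sites at its ends. The first lay in intron 2 (chromosome 7, 89975501 to 89976500), with 70.14, 73.15, 49.61 and 92.10 reads in susceptible and 102.06, 95.63, 94.93 and 100.30 in control libraries. Controls were tight here (98.2 ± 3.49; SD, n = 4) and susceptible libraries spread (71.2 ± 17.4), with susceptible library 35 close below the lowest control. The second, near the far end (chromosome 7, 89956901 to 89958200), was in intron 9 of the principal transcript and in an exon of another, non-coding transcript. There 76.07, 59.60, 89.54 and 82.98 reads in susceptible libraries stood below 96.55, 116.36, 116.27 and 104.74 in controls, with no overlap. The limma log2 changes were -0.49 ± 0.16 and -0.50 ± 0.15 (SE, unadjusted p = 0.00462 and 0.00238).

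Ezh1, the catalytic subunit gene more typical of non-dividing cells, had a site in the susceptible table alone (intron 10, chromosome 11, 101204601 to 101205600). It held 106.69, 57.80, 84.70 and 82.07 reads in susceptible and 92.87, 101.39, 119.47 and 133.14 in control libraries. Susceptible library 26 exceeded 2 of the controls. The limma log2 change of -0.45 ± 0.16 (SE, unadjusted p = 0.00982) shrank to -0.29 (unadjusted p = 0.0854) without susceptible library 29 and to -0.36 (unadjusted p = 0.0554) without control library 34. Whether Ezh1 differed between susceptible and resilient mice was not tested, since the resilient table lists no window there.

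Jarid2, which encodes an accessory subunit that binds nucleosomes and RNA, had its susceptible site in intron 2 (chromosome 13, 44826301 to 44827300). Susceptible libraries were nearly equal, at 80.02, 82.18, 85.91 and 81.16 reads, and controls held 114.02, 106.00, 122.67 and 100.30. The groups stood apart, and limma gave -0.42 ± 0.14 on the log2 scale (SE, unadjusted p = 0.00599).

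**Figure D2:**
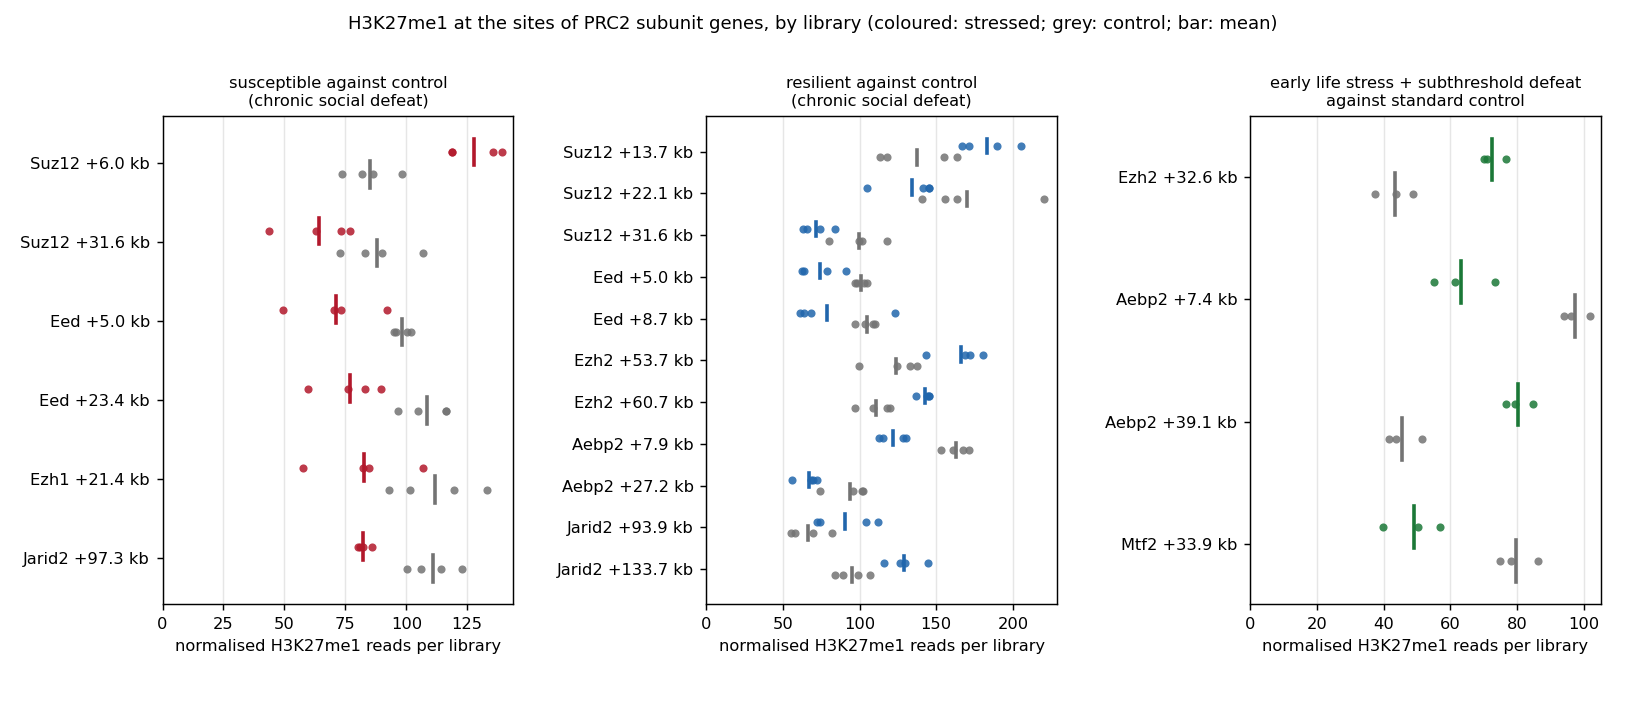
Normalised H3K27me1 reads (x axis) in each library at each site (rows, named by gene and distance from the gene start); coloured points are stressed libraries, grey points controls and bars group means. Suz12 at 6.04 kb separates fully in the susceptible panel (118.54 to 139.07 against 73.60 to 98.39), whereas 1 resilient library sits above the controls at the Eed site at 8.73 kb.

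In resilient mice, the same genes were evenly split. Of 11 sites 5 were higher and 6 lower (51.7% higher among all called sites), in 5 of the 10 genes: Ezh2 and Jarid2 held only higher sites, Eed and Aebp2 only lower ones, and Suz12 both. A called site lay in 14.7% of all protein-coding genes (a higher one in 7.71% and a lower one in 10.1%) and in 27.0% of those longer than Phf19. In the authors' deposited table the absolute log2 changes ran from 0.34 to 0.49, with a median of 0.42 against 0.43 over all sites. The groups did not overlap at 7 of 11 sites, against 54.7% of all sites in the table.

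Suz12 had 3 sites, and as in susceptible mice the higher site lay nearer the gene start than any lower one. The higher sites of the outcomes lie in different windows, and an order along the gene was not tested. In intron 4 (chromosome 11, 80006101 to 80007500), 171.12, 189.54, 166.60 and 205.21 reads in resilient libraries 27, 30, 33 and 36 stood above 113.15, 163.56, 117.76 and 155.35 in controls 25, 28, 31 and 34. Here 2 controls came close to the lowest resilient library without passing it (log2 change 0.43 ± 0.13; SE, limma, unadjusted p = 0.00168). At exons 11 and 12 (chromosome 11, 80024201 to 80025300), resilient libraries held 63, 74.27, 84.28 and 65.51 and controls 101.84, 99.56, 117.76 and 79.94. That site contains the lower site of the susceptible table whole, and resilient library 33 overlapped control library 34. Since both comparisons use the same control libraries, the shared direction is not a repeat of the finding.

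The middle Suz12 site lay at exon 8 (chromosome 11, 80014701 to 80015800). Resilient libraries held 141.32, 145.21, 104.86 and 145.48 reads and controls 155.59, 220.44, 140.66 and 163.52. Control library 28 stood high and resilient library 33 low. The log2 change of -0.33 ± 0.13 (SE, limma, unadjusted p = 0.0169) became -0.20 (unadjusted p = 0.158) without the former and -0.22 (unadjusted p = 0.124) without the latter.

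Eed was lower in resilient as in susceptible mice, at the identical window in intron 2. Resilient libraries held 91.09, 78.70, 62.72 and 63.59 reads and controls 104.67, 98.37, 97.04 and 102.66, with no overlap. Because the window is the same, the outcomes could be set side by side, each library taken relative to the control mean of its own table. The window is listed for both outcomes because it was lower in both against the same control libraries. A small difference between the outcomes was therefore largely built in. The mean log2 ratios were -0.50 ± 0.37 in susceptible and -0.46 ± 0.26 in resilient libraries (SD, n = 4 each), a difference of -0.04 (exact permutation test, two-sided, p = 0.8286; the smallest possible p is 0.0286). The libraries spread far more widely than this difference, and a p of this size does not show that the outcomes are alike.

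A further Eed site covered exon 3 (chromosome 7, 89971701 to 89972800). It held 68.11, 60.96, 63.70 and 123.32 reads in resilient and 110.32, 97.18, 109.04 and 103.56 in control libraries. Resilient library 36 was above every control while the other 3 were far below them. The log2 change was -0.47 ± 0.17 (SE, limma, unadjusted p = 0.00672), and -0.70 (unadjusted p = 8.54e-05) without library 36.

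Ezh2, the catalytic subunit gene best known from dividing progenitors, was higher at its far end. At exons 13 to 15 (chromosome 6, 47540701 to 47542500), which encode part of the cysteine-rich region ahead of the SET domain, resilient libraries held 168.56, 171.81, 180.32 and 143.55 reads and controls 137.67, 124.44, 133.03 and 99.93. In intron 15 (chromosome 6, 47534101 to 47535200), also an exon of a non-coding transcript, they held 137.06, 144.10, 145.04 and 145.48 against 108.44, 119.70, 117.76 and 97.21. No resilient library overlapped a control at either site. The limma log2 changes were 0.43 ± 0.13 and 0.37 ± 0.13 (SE, unadjusted p = 0.00178 and 0.00706).

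Jarid2 had higher sites in resilient mice where its one susceptible site was lower. The first covered exon 2 (chromosome 13, 44822901 to 44823900) upstream of the susceptible site. Resilient libraries held 74.07, 111.95, 72.52 and 104.05 reads and controls 69.78, 58.07, 81.78 and 55.42. Control library 31 exceeded 2 resilient libraries, and the log2 change of 0.44 ± 0.17 (SE, limma, unadjusted p = 0.011) fell to 0.33 (unadjusted p = 0.0703) without resilient library 30. It also lost an unadjusted p under 0.05 without resilient library 36 (0.36, limma, unadjusted p = 0.0528) or control library 34 (0.36, unadjusted p = 0.0517). The second, in intron 3 (chromosome 13, 44862601 to 44863800), held 115.78, 126.36, 129.36 and 144.51 against 106.55, 84.15, 89.41 and 99.02 reads, with the groups apart (log2 change 0.44 ± 0.14; SE, limma, unadjusted p = 0.00261). The opposite directions belong to different windows and the difference between outcomes was not tested.

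Aebp2, which encodes a zinc-finger subunit, was lower in resilient mice in a pair of introns. In intron 1 (chromosome 6, 140629901 to 140631300), 128.55, 115.28, 112.70 and 130.06 reads in resilient libraries stood clear of 161.24, 152.89, 171.19 and 167.16 in controls. In intron 7 (chromosome 6, 140649401 to 140650400), 56.19, 69.83, 72.52 and 68.40 stood below 101.84, 96.00, 102.50 and 74.49, where control library 34 came closest. The limma log2 changes were -0.42 ± 0.13 and -0.48 ± 0.16 (SE, unadjusted p = 0.00147 and 0.00368). The susceptible table lists no site in Aebp2; its nearest called site was 32.9 kb away.

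In mice with ELS and subthreshold defeat, 3 of the 10 genes held H3K27me1 sites: Ezh2 was higher, Mtf2 lower and Aebp2 both. Of 4 sites 2 were higher and 2 lower, beside 67% higher among all called sites of the table. A called site lay in 13.5% of protein-coding genes (a higher one in 9.56% and a lower one in 5.49%) and in 25.7% of those longer than Phf19. The groups did not overlap at any of the 4 sites (98.8% of all sites in the table), and all 4 passed limma before (99% of all sites) and after (95.8%) adjustment over all windows. The authors chose that table's sites with a negative binomial test on the same libraries, so none of these shares is independent of the choice. With 3 libraries a group, an exact permutation test of a site cannot go below 0.10.

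Aebp2 was the one gene in which sites of the separate cohorts overlapped. Its intron 1 site in the ELS table (chromosome 6, 140629601 to 140630600) shares 700 bp with the resilient site, and it too was lower. Libraries 40, 44 and 48 of stressed mice held 73.39, 55.06 and 61.49 reads, and control libraries 37, 41 and 45 held 101.77, 96.21 and 94.15. The log2 change was -0.62 ± 0.16 (SE; limma, adjusted p = 0.0179 over all windows), beside -0.42 in resilient mice. No library is common to the comparisons, but the authors' tables list each site because it differed there.

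**Figure D3:**
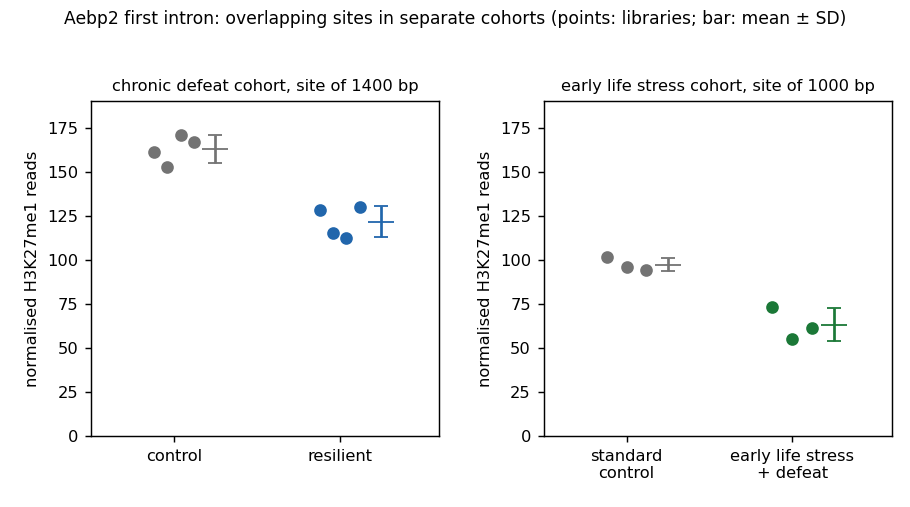
Normalised H3K27me1 reads (y axis, from 0) in each library at the overlapping Aebp2 intron 1 sites of the defeat cohort (left) and the ELS cohort (right), with mean ± SD beside the points. Stressed libraries lie below all controls in both panels, at 112.70 to 130.06 against 152.89 to 171.19 and at 55.06 to 73.39 against 94.15 to 101.77; levels are not comparable between panels, since widths and scaling differ.

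The other Aebp2 site of the ELS table was higher (chromosome 6, 140661201 to 140662300). It lies beyond the last exon of the principal transcript and inside an intron of a longer coding one. It held 84.86, 79.32 and 76.59 reads in stressed and 41.50, 43.73 and 51.43 in control libraries, and the groups stood well apart. The fitted log2 change was 0.81 ± 0.18 (SE; limma, adjusted p = 0.00394 over all windows). Aebp2 therefore carried sites of both directions in the ELS cohort and lower sites alone in the resilient comparison.

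Ezh2 was higher in intron 3 in the ELS cohort (chromosome 6, 47562201 to 47563300), at 69.95, 70.92 and 76.59 reads against 37.54, 43.73 and 48.82. Its log2 change was 0.73 ± 0.18 (SE; limma, adjusted p = 0.0124 over all windows). The resilient Ezh2 sites were also higher, but lay further along the gene. Mtf2, which encodes a Polycomb-like subunit that brings PRC2 to unmethylated CpG-rich DNA, was lower at exon 10 (chromosome 5, 108099101 to 108100100), at 50.46, 56.92 and 39.92 against 78.05, 74.83 and 86.30 reads. Its log2 change was -0.70 ± 0.17 (SE; limma, adjusted p = 0.0139 over all windows). Mtf2 held no site in the defeat cohort, where the nearest called H3K27me1 site was 105.7 kb from it.

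H3K27me2 showed no site in any of the 10 genes in either the susceptible or the resilient table, by the authors' G-test. Such sites were rare in genes at large, in 0.729% and 1.15% of protein-coding genes. The nearest H3K27me2 site to any of the 10 genes was 928.7 kb from Aebp2, in both tables. Windows that were not listed were not analysed here, so H3K27me2 levels at these genes are unknown and limma could not be run on them.

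Phf1, Phf19 and Kdm6b, with no site in any table, were the shortest of the 10 genes, at 4.86, 20.3 and 15.2 kb against 26.3 kb (Eed) to 192 kb (Jarid2) for the others. Of all protein-coding genes up to the length of Phf19, 8.09% held a called susceptible site, 4.17% a resilient and 3.12% an ELS site. The nearest called ELS sites lay 5.09 kb from Phf1 (lower) and 13.9 kb from Phf19 (higher). Around Kdm6b the nearest called site of any table was 67.4 kb away (lower in susceptible mice).

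The deposited enrichment over IgG moved further than the reads at the lower sites. Dividing each group's mean by its enrichment gives the IgG level that the authors' ratio implies, and this level was higher in the stressed group at all 5 lower susceptible sites, all 6 lower resilient sites and both lower ELS sites. Among all lower sites of those tables it was higher at 64.5%, 61.7% and 50.6%. At the lower Suz12 site, enrichment was 2.15 in susceptible and 5.17 in control groups, with implied IgG levels of 29.8 and 17.05. At the higher Suz12 site in susceptible mice the implied IgG level was also higher in the stressed group (42.9 against 29.7), with enrichments of 2.98 and 2.86. At the higher Suz12 site of resilient mice the reads were higher but the enrichment over IgG was not, at 3.70 in the resilient and 3.73 in the control group. At the Jarid2 intron 3 site, also higher in reads, it was 2.30 and 2.27. The part of the IgG level in these results was not tested.

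**Figure D4:**
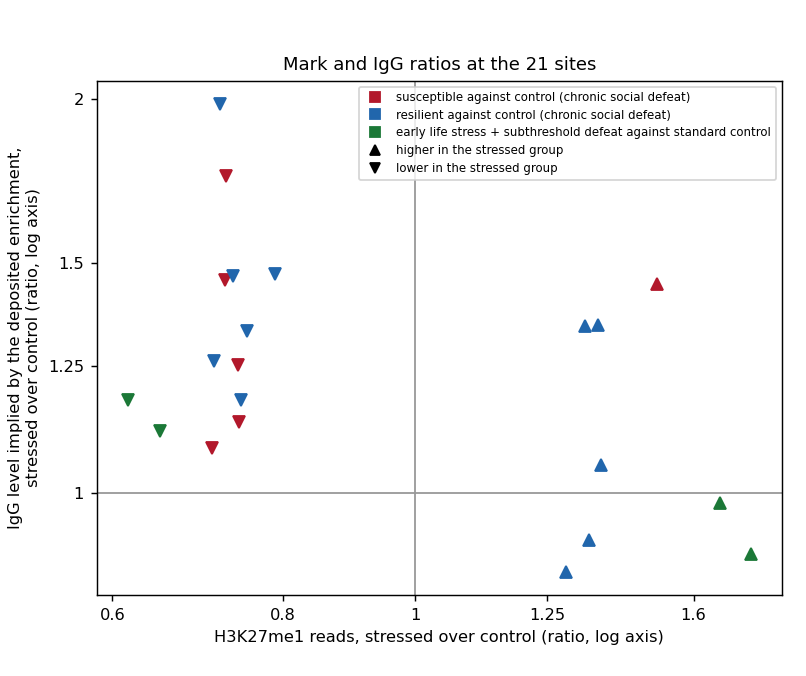
Ratio of H3K27me1 reads, stressed over control (x axis, log scale), against the same ratio of the IgG level implied by the deposited enrichment (y axis, log scale) at the 21 sites; colours give the comparison and triangles the direction. All 13 lower sites lie above an IgG ratio of 1, and the 8 higher sites lie on both sides of it. Overlapping Suz12 and Eed sites of the susceptible and resilient comparisons are drawn as separate points.

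Beyond these genes, 43 other Polycomb and H3K27-related genes were counted from a list chosen with earlier results of these data known. Their lengths were not taken into account. In susceptible mice 23 of them held a called site, beside 19.8% of all protein-coding genes (7.91% a higher and 15.2% a lower one). Among protein-coding genes longer than Phf19, 33.6% held one. Of the 23 listed genes, 14 held only lower sites, 6 only higher and 3 both. By sites, 17 were higher and 29 lower among 46, beside 50.3% higher in the table. Scmh1, a Polycomb group gene, had 2 higher sites and 1 lower, the last with 157 ± 26.4 against 216 ± 23.2 reads and the smallest p of the 3. L3mbtl2, of a variant PRC1, had 3 lower sites, with 376 ± 59.98 against 464 ± 71.8 reads at the first. Ash1l, an H3K36 methyltransferase gene, also had 3 lower sites. Lcorl had 5 higher sites, led by one of 322 ± 66.2 against 253 ± 16.5 reads (SD, n = 4 each).

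In resilient mice 18 of the 43 genes held a site, beside 14.7% of all protein-coding genes (7.71% a higher and 10.1% a lower one). Among protein-coding genes longer than Phf19, 27.0% held one. Of the 18 listed genes, 9 held only lower sites, 7 only higher and 2 both, with 16 of 32 sites higher, beside 51.7% in the table. Rbbp4, a histone-binding partner of the PRC2 core, was lower at both of its sites, the leading one at 56.97 ± 9.997 against 85.5 ± 2.01 reads. Sfmbt1 was higher at all 3, led by 71.4 ± 4.06 against 45.6 ± 2.76 (SD, n = 4 each). In the ELS cohort 9 genes held a site, beside 13.5% of all protein-coding genes (9.56% a higher and 5.49% a lower one). Among protein-coding genes longer than Phf19, 25.7% held one. Of the 9 listed genes, 4 held only lower sites, 4 only higher and 1 both. By sites, 5 were higher and 11 lower, beside 67% higher in the table. Nsd1, another H3K36 methyltransferase gene, had 4 lower sites, with 86.2 ± 2.16 against 133 ± 10.4 reads at the first, and the PRC1 gene Yaf2 was higher, at 74.5 ± 5.79 against 40.9 ± 8.02 (SD, n = 3 each). None of the 43 held an H3K27me2 site.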

How the data were processed

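The deposited tables hold differential H3K27me1 or H3K27me2 sites called by the authors with diffReps 1.55.4, per the file headers, in 1000-bp windows with a step of 100 bp, using a G-test for the defeat cohort and a negative binomial test for the ELS cohort. The submitters' processing notes also name Trim Galore 0.6.5, cutadapt 2.10, Bowtie2 2.4.1, SAMtools 1.10, MACS2 2.2.6 and mm10. The signal of each library, as deposited, is its read number in the site after scaling with one constant per library, per the file headers, and the authors' group means are the averages of these. For enrichment the authors gave the ratio of a group's mean to IgG; how IgG was scaled is not given in the sources used here. The log2 fold changes, p-values and adjusted p-values are the authors', deposited with the sites.

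A site was called at an adjusted p under 0.05. The spread between libraries was tested with limma 3.58.1 (R 4.3.3) on log2(normalised reads + 1), with a mean-variance trend, over all sites of a table, two-sided. This scale understates changes of low counts. The fit was tried first on simulated data in which most sites were unchanged. All sites fitted here had been selected for a difference, so the simulation does not vouch for their p-values. Limma p-values were also adjusted (Benjamini-Hochberg) over all windows tested, unlisted windows counting as not passing. Fold changes in the text are limma's unless named the authors'. The principal coding transcript of each gene gave exon numbers. All sites of the 10 genes are named; from the wider list up to 4 genes of smallest authors' p per table could be named. The genes and lists were chosen with earlier results of these data known. Other software was Python 3.11.15 with pandas 2.3.3, numpy 2.4.6 and matplotlib 3.10.9.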

Additional observations from a re-analysis of the deposited data

Results flagged for a closer look

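Of 34 groups of 4 libraries at the sites of the defeat cohort, 3 held a library set apart from the other 3 by more than Dixon's 95% limit on the gap relative to the group's range. Chance sets apart about 1 group in 20, and some of these groups share control libraries. Resilient library 36 held 123.32 reads at the Eed exon 3 site, against 60.96 to 68.11 in the others. Resilient library 33 held 104.86 reads at the Suz12 exon 8 site, against 141.32 to 145.48. Resilient library 27 held 137.06 reads at the Ezh2 intron 15 site, against 144.10 to 145.48, a gap that is small beside the difference from controls.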

How the results depend on the processing

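The site counts (6 susceptible, 11 resilient, 4 ELS, 0 in both H3K27me2 tables) were identical with the gene body alone, with 5000 bp before the start, with the middle of the site as the criterion and with an enrichment over IgG of at least 1. At an adjusted p of 0.01 only the ELS count moved, to 1 site, the higher Aebp2 one. An exact permutation test put 7 of the 11 resilient sites under 0.05, against 11 by limma, and 4 of 6 susceptible sites. With 4 libraries a group, such a p is reached only where the groups do not overlap. That held for 54.7% of all resilient and 52.8% of all susceptible sites, so these counts only repeat those for overlap. Leaving out 1 library, limma gave 5 to 6 susceptible, 10 to 11 resilient and 4 to 4 ELS sites with an unadjusted p under 0.05. Limma without its trend gave the same 6, 11 and 4. Over 202 alternative fits of the 21 sites (pseudocounts of 0.5 and 5, and each library left out), none changed direction and 8 lost an unadjusted p under 0.05; all 8 are given with their sites. The planned count model on reads recovered from the normalised values was not run. No paired analysis was possible because the library numbers are unique to each library. Mean reads per bin were lowest in the ELS cohort, at 5.0 to 7.78, but the bins behind these means may differ between the cohorts.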
